A study of Mus musculus with 8 samples.

Results

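The mitochondrial carriers of the Slc25a family are the proteins that move metabolites, nucleotides, phosphate, cofactors, metal ions and protons across the inner mitochondrial membrane. They share a fold of repeated membrane segments, and most exchange a solute on one side for another on the other side. ADP/ATP and phosphate carriers supply ATP synthase, the citrate and dicarboxylate carriers link the citric acid cycle to the cytosol, and uncoupling proteins carry protons or small anions. In tissue that surrounds vessels, Ucp1 is known as the protein through which brown and beige adipocytes make heat.

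The 45 genes described here were chosen by name from the 23358 gene rows of the deposited table: every symbol that begins with Slc25a and a number, except Slc25a17 and Slc25a20, together with Ucp1, Ucp2 and Ucp3. The family was proposed after Slc25a34 had passed the test between the groups in these same samples, so its values in that contrast, and those of the family, are given as a description and support nothing further. Levels are in RPKM (reads per kilobase and mega-read), which are per length and can be compared between genes. Of the 45 carriers, 37 averaged 1 RPKM or more over the 8 samples and entered the test, and 8 did not.

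The samples were outflow veins of arteriovenous fistulas between carotid artery and jugular vein in C57BL6J mice. The MSC group had 4 samples, in which mesenchymal stem cells (MSCs, 250000 of them, taken from a C57 donor matched for sex) were placed on the outer layer of the vein when the fistula was made, and the vehicle group had 4 samples. Animals of both groups carried a chronic kidney disease model for 28 days before the fistula, and veins were taken 3 days after it. The labels do not give the tissue the MSCs came from, and RNA of the applied cells and of the vein cannot be told apart. They also do not say whether samples are separate animals, so every p measures only the spread between these samples, which may be technical.

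Reads assigned to genes came to 29.9 to 38.2 mega-reads per MSC sample and 26.9 to 33.3 per vehicle sample. Markers of the vein wall were present in both groups, with summed levels of 220.1 to 288 RPKM in MSC veins and 160.3 to 287 in vehicle veins for 7 smooth muscle genes, and of 351 to 578 RPKM in MSC veins and 459 to 575 in vehicle veins for 7 endothelial genes. Markers of neighbouring tissue differed more. The 12 white adipocyte genes summed to 439.5, 1426, 1952 and 405 RPKM in MSC veins, against 3357, 3566, 3520.2 and 4871 in vehicle veins. The groups do not overlap, all 12 genes had a negative log2 fold change, 9 of the 12 had MSC values below every vehicle value (as did 4.17% of all genes tested), none passed the test and none was at 0 in any sample. The 12 skeletal muscle genes summed to 858, 777, 769.6 and 12.1 RPKM in MSC veins, against 606, 68.0, 5.45 and 133 in vehicle veins, so MSC sample 4 stood apart from the other MSC samples and vehicle sample 1 from the other vehicle samples. The 9 macrophage genes found summed to 4053 ± 930.3 RPKM in MSC veins, with 2991 ± 357 in vehicle veins (n = 4 each, SD). These sums overlap, with 3285 to 5385 RPKM in MSC veins and 2666 to 3499 in vehicle veins, and none of the 9 genes passed the test. Lyz2 alone averaged 2898 RPKM in MSC veins, with 2006 in vehicle veins.

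The 250 bases before the transcription start are shown for the carriers around which the comparison turns: Slc25a34, which passed the test, and Ucp1, Slc25a23 and Slc25a13, of which the first 2 had the next largest negative log2 fold changes and the last the largest positive one at a pseudocount of 1 RPKM. Sequences are those of RefSeq on GRCm38.p6, read 5′ to 3′ on the gene's own strand, and capitals mark the motif matches described after them. The windows are chr4:141623835-141624084 (minus strand), chr8:83290098-83290347 (plus strand), chr17:57059864-57060113 (minus strand) and chr6:6217174-6217423 (minus strand), in the same order.
Slc25a34: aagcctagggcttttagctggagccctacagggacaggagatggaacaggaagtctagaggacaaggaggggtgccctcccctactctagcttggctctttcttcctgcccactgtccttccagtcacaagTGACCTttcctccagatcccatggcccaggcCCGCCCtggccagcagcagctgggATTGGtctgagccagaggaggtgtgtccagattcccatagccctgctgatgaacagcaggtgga
Ucp1: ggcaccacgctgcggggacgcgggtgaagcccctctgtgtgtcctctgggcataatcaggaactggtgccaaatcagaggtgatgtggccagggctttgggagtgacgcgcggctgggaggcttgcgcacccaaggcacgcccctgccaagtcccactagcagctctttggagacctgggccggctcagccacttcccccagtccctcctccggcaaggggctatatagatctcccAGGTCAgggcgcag
Slc25a23: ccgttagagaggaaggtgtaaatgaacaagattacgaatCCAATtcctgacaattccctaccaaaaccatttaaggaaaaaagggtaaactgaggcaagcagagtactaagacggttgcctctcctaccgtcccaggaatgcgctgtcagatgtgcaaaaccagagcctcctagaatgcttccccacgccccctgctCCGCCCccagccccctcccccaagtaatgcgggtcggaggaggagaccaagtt
Slc25a13: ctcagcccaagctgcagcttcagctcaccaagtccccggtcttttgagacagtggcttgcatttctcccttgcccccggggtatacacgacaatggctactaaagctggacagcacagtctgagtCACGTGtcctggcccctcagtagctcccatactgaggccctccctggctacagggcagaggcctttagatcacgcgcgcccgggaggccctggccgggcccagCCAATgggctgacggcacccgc
Positions count back from the start site, with -1 the last base printed, and name the 5′ end of a match. The Slc25a34 window holds TGACCT, the reverse complement of the nuclear receptor element AGGTCA, at -119, a GC box on the reverse strand (CCGCCC) at -88 and a reverse CCAAT box (ATTGG) at -64. The Ucp1 window holds AGGTCA at -14. The Slc25a23 window holds CCAAT at -211 and CCGCCC at -53, and the Slc25a13 window holds the E-box CACGTG at -125 and CCAAT at -22.

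Promoter windows were matched by symbol for 35 of the 45 carriers. On either strand, AGGTCA was found in 6 of these 35 (17.1%), namely Slc25a34, Slc25a39, Slc25a45, Slc25a47, Ucp1 and Ucp3, against 13.8% of all 27025 promoter windows of the same length. The GC box GGGCGG was found in 22 carriers (62.9%), against 32.9% of all windows, the CCAAT box in 15 (42.9%), against 34.5%, and the E-box CACGTG in 6 (17.1%), against 6.05%. The NRF1 motif was found in 2 carriers, Slc25a3 and Slc25a31 (5.71%, against 3.86%), the ETS motif CCGGAAG in 3, Slc25a3, Slc25a38 and Slc25a4 (8.57%, against 7.05%), and the C/EBP motif TTGCNNAA in Slc25a12 alone (2.86%, against 9.55%). A window may hold several motifs, and matches of different motifs may share letters. These are matches of letters in one window per gene, not sites of binding, and were not tested.

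All carriers together summed to 820.9 ± 27.6 RPKM in MSC veins, with 784 ± 46.8 in vehicle veins (n = 4 each, SD), and the ranges of 781 to 843 RPKM for MSC veins and 721 to 821 for vehicle veins overlap. The 4 carriers with the highest mean, Slc25a5, Slc25a3, Slc25a4 and Ucp2, made 69.3 ± 1.34% of that sum in MSC veins and 66.2 ± 2.40% in vehicle veins. A further 11 carriers averaged 10 to 50 RPKM, from Slc25a39 to Slc25a22, and 22 averaged 1 to 10. The 8 below 1 RPKM were Slc25a47, Slc25a18, Slc25a29, Slc25a31, Slc25a2, Slc25a21, Slc25a48 and Slc25a41, of which the last 5 averaged under 0.2. The lowest carrier tested was Slc25a27 with a mean of 1.31 RPKM over all samples, and the highest not tested was Slc25a47 with 0.778.

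**Figure D1:**
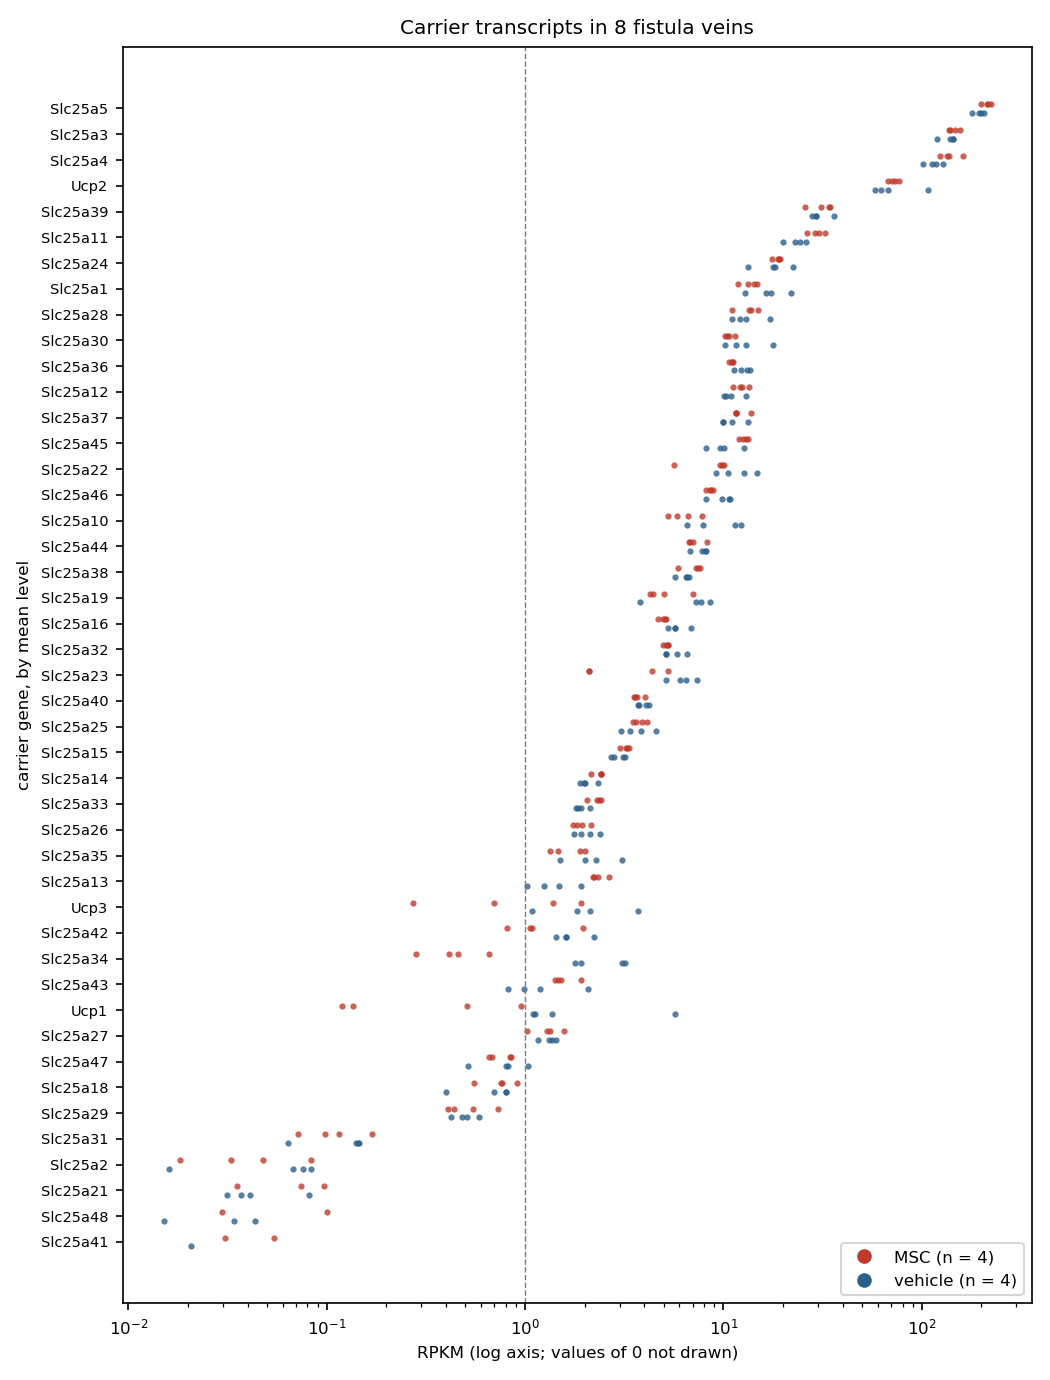
RPKM of the 45 carriers on a log axis, 1 row per gene in order of mean level, 4 points per group with the MSC samples above the vehicle samples in each row and the dashed line at 1 RPKM. Slc25a5 stands at the top and 8 carriers lie below the line, while Slc25a34, Ucp1 and Ucp3 spread over the widest range among the 37 tested.

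Within a group most carriers varied little. The median coefficient of variation over the 37 tested was 8.85% in MSC veins and 13.7% in vehicle veins, beside 9.82% in MSC veins and 13.4% in vehicle veins over all 12129 genes tested. Variation above 40% was seen for 4 carriers in MSC veins, Ucp1 (91.8%), Ucp3 (68.3%), Slc25a23 (46.7%) and Slc25a42 (40.9%), and for 3 in vehicle veins, Ucp1 (97.1%), Ucp3 (50.5%) and Slc25a43 (43.5%).

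The ADP/ATP carriers, which exchange cytosolic ADP for mitochondrial ATP, headed the family. Slc25a5, the isoform widely made in dividing and other cells, had 214, 223, 215 and 199 RPKM in MSC veins, against 194, 200.04, 206 and 180.01 in vehicle veins. It was the highest carrier in each of the 8 samples, and the groups overlap. Slc25a4, the isoform prominent in heart and skeletal muscle, had 162, 135, 138 and 124 RPKM in MSC veins, against 128, 113, 118 and 101 in vehicle veins. Its highest value was in an MSC sample and its lowest in a vehicle sample, with overlap between the groups. The log2 fold change was 0.28 (95% interval 0.03 to 0.52), which did not pass the test (limma adjusted p = 0.246). Slc25a31, known from the testis, was low everywhere, with 0.116, 0.0715, 0.0980 and 0.169 RPKM in MSC veins, against 0.144, 0.0638, 0.140 and 0.145 in vehicle veins. It rested on 7 to 16 reads per MSC sample and 6 to 14 per vehicle sample, and it was not tested. One pseudogene is named for Slc25a5 in the annotation, and whether the authors' counting split reads between such copies is not given.

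Slc25a3, the phosphate carrier, had 139, 156, 147 and 137 RPKM in MSC veins, against 139, 144, 143 and 119 in vehicle veins, and its groups overlap. The ATP-Mg/phosphate carriers Slc25a23, Slc25a24 and Slc25a25 are calcium-regulated exchangers that set the adenine nucleotide pool of the matrix. Slc25a23 had 2.09, 4.36, 5.28 and 2.11 RPKM in MSC veins, against 5.14, 6.47, 6.02 and 7.36 in vehicle veins. MSC samples 1 and 4 were low, MSC sample 3 lay just above the lowest vehicle sample, and the difference did not pass the test (log2 fold change -0.76, SE 0.23, limma adjusted p = 0.165). Slc25a24 averaged 18.7 ± 0.794 RPKM in MSC veins, with 17.9 ± 3.80 in vehicle veins, and Slc25a25 averaged 3.78 ± 0.270 in MSC veins, with 3.71 ± 0.662 in vehicle veins (n = 4 each, SD). Both overlap between the groups, and Slc25a41, the relative that lacks the calcium-binding part, was at 0 in 2 of the MSC samples and in 3 of the vehicle samples.

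Among the uncoupling proteins, Ucp2, which is common in immune and vascular cells, was the main one. Its level was 73.5, 67.8, 70.7 and 76.4 RPKM in MSC veins, against 107, 62.5, 67.6 and 58.3 in vehicle veins. Vehicle sample 1 was the highest of all and the other 3 vehicle samples were below every MSC sample. The log2 fold change was 0.01 with an interval of -0.38 to 0.40, and 0.20 without vehicle sample 1 (limma adjusted p = 0.300). The sign of so small a value was negative under upper-quartile, median-of-ratios and quantile scaling. Ucp3, the uncoupling protein of skeletal muscle and brown fat, had 0.700, 1.38, 1.93 and 0.273 RPKM in MSC veins, against 1.83, 1.09, 2.12 and 3.72 in vehicle veins. MSC samples 1 and 4 were below every vehicle sample while MSC samples 2 and 3 were not, and the difference did not pass the test (log2 fold change -0.63, limma adjusted p = 0.332). Ucp1 had 0.119, 0.511, 0.960 and 0.135 RPKM in MSC veins, against 1.12, 1.09, 1.37 and 5.69 in vehicle veins, from 8 to 84 reads per MSC sample and 80 to 367 per vehicle sample. The groups do not overlap, vehicle sample 4 stood far above the other 7 samples, and the difference did not pass the test (log2 fold change -1.06, SE 0.37, limma adjusted p = 0.212). Like Slc25a34, it owed its place in the test to the vehicle samples, since every MSC value was under 1 RPKM, and without vehicle sample 4 it no longer reached the mean of 1 RPKM needed for testing. The related carriers Slc25a14, Slc25a27 and Slc25a30 had log2 fold changes of 0.13, -0.01 and -0.25, with overlapping groups.

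The adipocyte and skeletal muscle levels stand beside these values. MSC samples 1 and 4, the lowest for Ucp1, Ucp3 and Slc25a23, were also those with the lowest white adipocyte sums, and vehicle sample 4, the highest for the same 3 genes, had the highest sum. The brown adipocyte list of 12 genes summed to 27.2, 25.9, 34.4 and 10.8 RPKM in MSC veins, against 23.6, 51.4, 38.7 and 44.9 in vehicle veins, with overlap between the groups. In MSC sample 1, Cox8b and Cox7a1 held 10.3 and 9.77 RPKM of the sum. Otop1, which was not tested, had 0.0467 to 0.267 RPKM in MSC veins, below its 0.328 to 1.21 in vehicle veins. The other genes of the list overlap between the groups. Over all samples, Adrb3 spanned 0.657 to 28.4 RPKM, Cox8b 0.491 to 10.3, Cox7a1 3.11 to 9.77, Cidea 0.0842 to 3.57, Ebf2 2.63 to 4.002 and Lhx8 1.60 to 3.14. Dio2 reached 1.91 RPKM, Otop1 1.21, Ppargc1a 0.879, Prdm16 0.847, Elovl3 0.0678 and Zic1 0.0512, with Elovl3 at 0 in vehicle samples 2 and 3. With the white adipocyte score as a covariate, the log2 fold change was -0.17 for Ucp1, 0.17 for Slc25a23 and 0.32 for Ucp3, so the sign of Slc25a23 and Ucp3 turned. The white adipocyte sums do not overlap between the groups, so adipocyte content and the MSC treatment cannot be told apart. In these bulk samples, fewer cells of a type and less RNA per cell cannot be told apart either.

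**Figure D2:**
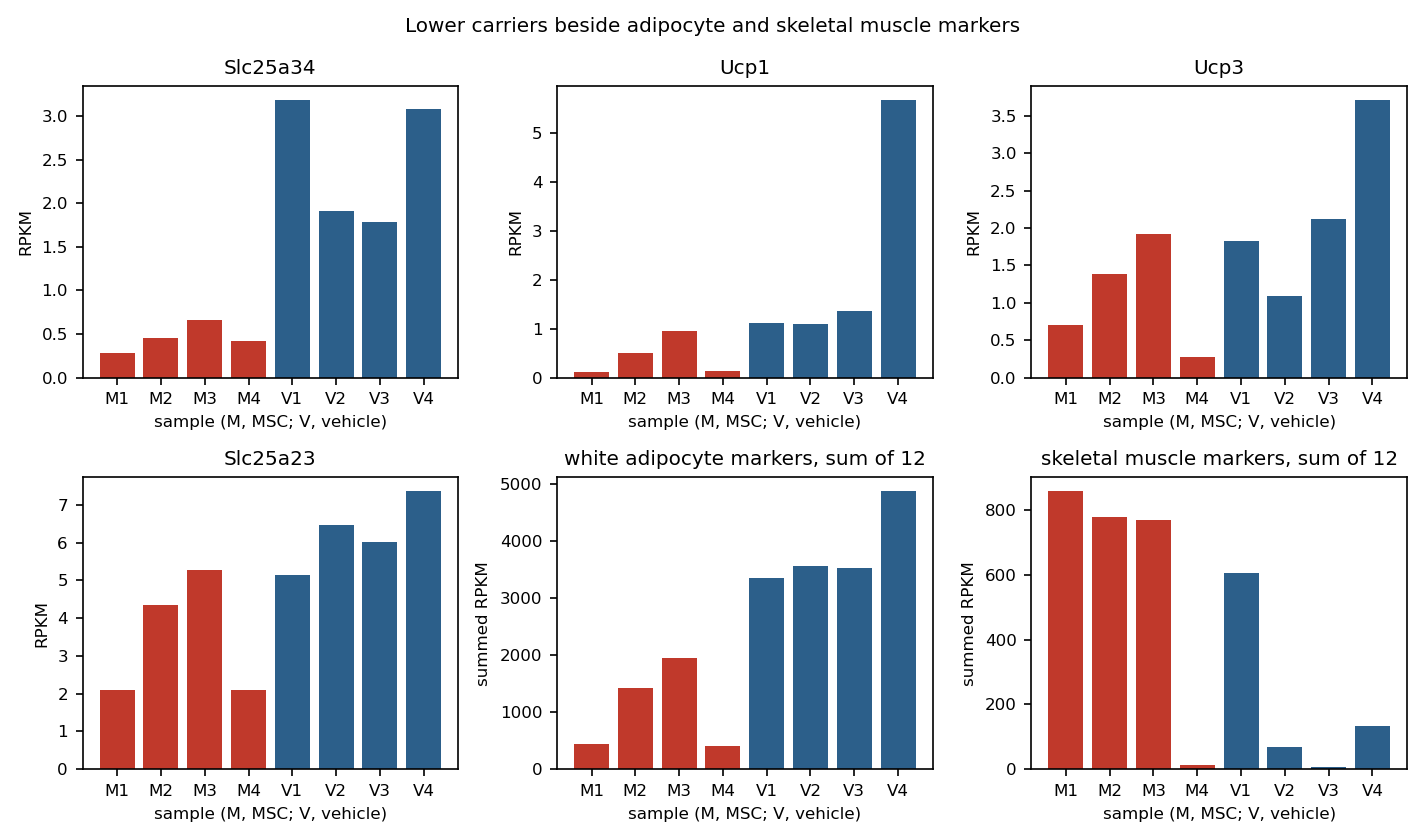
RPKM of Slc25a34, Ucp1, Ucp3 and Slc25a23 and the summed RPKM of 12 white adipocyte and 12 skeletal muscle marker genes, 1 bar per sample, with M1 to M4 the MSC samples and V1 to V4 the vehicle samples. The 4 MSC bars of Slc25a34 lie between 0.283 and 0.659 RPKM, below all vehicle bars, and white adipocyte sums of M1 and M4 are the lowest of the 8 samples.

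The carriers of citric acid cycle intermediates went in both directions. Slc25a11, the oxoglutarate carrier of the malate-aspartate shuttle, had 32.5, 30.2, 29.0 and 26.5 RPKM in MSC veins, against 20.1, 22.8, 26.0 and 24.2 in vehicle veins. All MSC values lie above all vehicle values, though the gap between the lowest MSC and the highest vehicle sample is small, and the difference did not pass the test (log2 fold change 0.33, SE 0.10, limma adjusted p = 0.164). Its exons overlap those of Rnf167 on the other strand, and whether reads were counted by strand is not given. Slc25a10, the dicarboxylate carrier, averaged 6.40 ± 1.11 RPKM in MSC veins, with 9.55 ± 2.75 in vehicle veins, and Slc25a1, the citrate carrier that feeds cytosolic acetyl-CoA, 13.5 ± 1.32 in MSC veins, with 17.1 ± 3.71 in vehicle veins (n = 4 each, SD). Both overlap between the groups, with intervals of -0.91 to -0.06 and -0.62 to 0.03 for the log2 fold change. Neither passed the test (limma adjusted p = 0.244 and 0.348).

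Of the aspartate/glutamate carriers, which export aspartate from the matrix, Slc25a12 was the more abundant in every sample. Slc25a13, the form prominent in liver, had 2.23, 2.20, 2.65 and 2.32 RPKM in MSC veins, against 1.02, 1.25, 1.92 and 1.48 in vehicle veins, from 284 to 441 reads per MSC sample and 147 to 264 per vehicle sample. Every MSC sample was above every vehicle sample, and its log2 fold change was 0.48 (SE 0.12, limma adjusted p = 0.114), which did not pass the test. With a pseudocount of 5 RPKM it was 0.20. The glutamate carrier Slc25a22 averaged 8.80 ± 2.11 RPKM in MSC veins, with 11.8 ± 2.48 in vehicle veins (n = 4 each, SD), with overlap.

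Among the amino acid carriers none passed the test. Slc25a45 had 12.0004, 12.9, 12.5 and 13.3 RPKM in MSC veins, against 8.17, 9.59, 12.8 and 10.1 in vehicle veins. Its MSC values were tightly spaced and vehicle sample 3 lay among them (log2 fold change 0.31, 95% interval 0.05 to 0.57). Slc25a15, the ornithine carrier of the urea cycle, Slc25a38, the glycine carrier of haem synthesis, and Slc25a44, a branched-chain amino acid carrier, had log2 fold changes of 0.09, 0.13 and -0.09. The iron importers Slc25a37 and Slc25a28 (mitoferrin 1 and 2) also overlapped: Slc25a37 had 11.6, 11.5, 11.6 and 13.7 RPKM in MSC veins, against 10.002, 11.1, 13.2 and 10.01 in vehicle veins, and Slc25a28 averaged 13.3 ± 1.61 in MSC veins, with 13.4 ± 2.69 in vehicle veins (n = 4 each, SD).

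Of the 9 nucleotide, cofactor and glutathione carriers, 7 had a negative and 2 a positive log2 fold change, and none passed the test. Slc25a36, a pyrimidine nucleotide carrier, had 11.01, 10.7, 10.99 and 11.2 RPKM in MSC veins, against 11.3, 13.1, 13.6 and 12.3 in vehicle veins. Slc25a16, which is linked to coenzyme A supply, had 4.96, 5.16, 5.08 and 4.66 RPKM in MSC veins, against 6.90, 5.74, 5.27 and 5.68 in vehicle veins. In both genes the MSC values were closely spaced and lay below all vehicle values by a narrow gap, with log2 fold changes of -0.18 and -0.20. Slc25a39, which imports glutathione, had 25.7, 34.5, 34.0 and 31.1 RPKM in MSC veins, against 28.0, 29.3, 36.3 and 29.3 in vehicle veins, with overlap and a log2 fold change of 0.03 that was below 0 under upper-quartile and median-of-ratios scaling and for the recovered reads.

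Slc25a34, a carrier whose substrate is not settled, was the 1 carrier that passed the test. Its level was 0.283, 0.458, 0.659 and 0.415 RPKM in MSC veins, against 3.19, 1.92, 1.79 and 3.09 in vehicle veins. Every MSC sample lay below every vehicle sample, from 31 to 94 reads per MSC sample and 211 to 395 per vehicle sample. The means were 0.454 ± 0.156 RPKM in MSC veins, with 2.495 ± 0.745 in vehicle veins (n = 4 each, SD), 5.50 times higher in vehicle veins. On the log2(RPKM + 1) scale, which understates changes of low genes, it fell by 1.25 (SE 0.16, 95% interval -1.61 to -0.89, limma adjusted p = 0.0275). It reached the mean of 1 RPKM needed for testing through the vehicle samples alone. The gene lies on chromosome 4 at 141618824 to 141623821 on the minus strand (GRCm38), and no other gene's exons overlap its own in the annotation.

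The call on Slc25a34 depended on single samples. The log2 fold change was -1.35 to -1.15 when each sample was left out in turn, and the call was lost without MSC sample 1, 2 or 4 or vehicle sample 2, 3 or 4, with adjusted p between 0.0577 and 0.102. It was also lost with no filter on low values (adjusted p = 0.0745) and with the white adipocyte score as a covariate (log2 fold change -1.01, SE 0.27, adjusted p = 0.847), a fit in which no gene of the table passed. The size of the log2 fold change depended on the scale. It was -2.23 with a pseudocount of 0.1 RPKM, -0.45 with 5 RPKM and -2.46 with voom on the reads, and the call held in each of these fits. Slc25a34 ran beside the white adipocyte sum in that MSC samples 2 and 3 had the highest values of both among MSC veins, while among vehicle veins sample 1 was highest for Slc25a34 and lowest for the adipocyte sum. Slc25a35, listed beside it among carriers of unsettled substrate, had 1.46, 1.90, 2.02 and 1.34 RPKM in MSC veins, against 1.49, 2.002, 2.28 and 3.08 in vehicle veins, with overlap and a log2 fold change of -0.25.

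Over the 37 carriers tested, 18 were above 0 and 19 below 0 in log2 fold change, and the median was -0.01 beside 0.04 over all genes tested. None passed in the direction of higher levels, where 0.0247% of all genes did, and 1 passed in the direction of lower levels, where 0.206% did. The groups did not overlap for 2 carriers with higher MSC values, Slc25a11 and Slc25a13, against 5.61% of all genes, and for 4 with lower MSC values, Slc25a34, Ucp1, Slc25a16 and Slc25a36, against 4.17%. At an unadjusted p under 0.05 there were 4 higher carriers, against 10.1% of all genes, and 6 lower, against 6.36%. The contrast is the one that led to the family, so nothing is read from these counts. Of the 37, 24 (64.9%) lay within 0.25 of 0 on the log2 scale, against 79.4% of all genes.

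**Figure D3:**
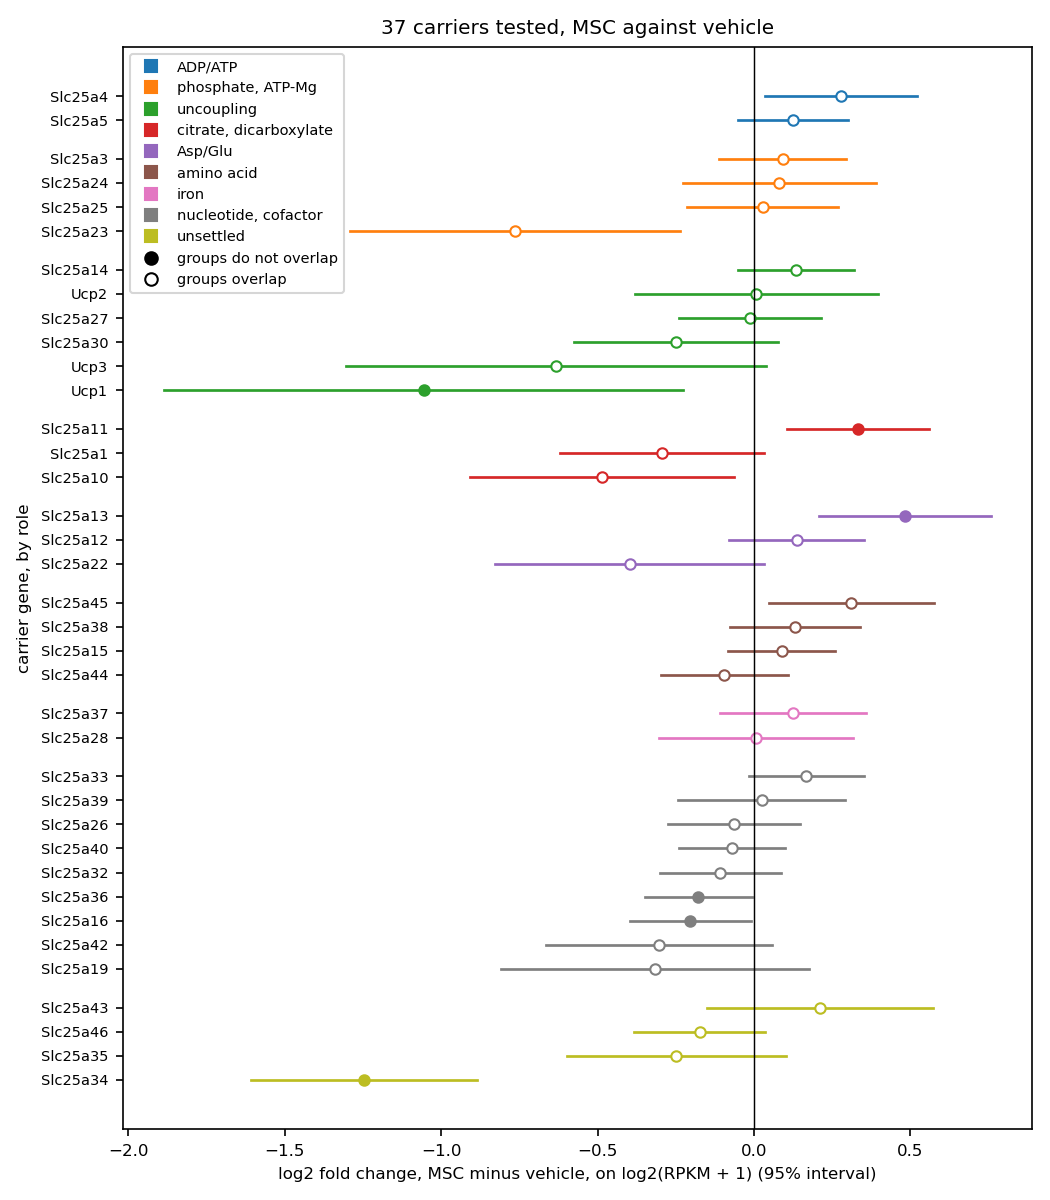
Log2 fold change, MSC minus vehicle, on the log2(RPKM + 1) scale for the 37 carriers tested, grouped and coloured by role, with 95% intervals from limma and filled points where the 4 MSC and 4 vehicle values do not overlap. Slc25a34 stands at -1.25, Ucp1 at -1.06 and Slc25a13 at 0.48, and most points lie within 0.25 of 0.

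Ratios between related carriers in the same sample do not depend on its scaling. The 11 pairs were chosen after the values had been seen and are a description without a test. The groups separated in 3 of them and overlapped in 8. How often other pairs of genes separate was not counted, so nothing is read from these counts. Slc25a10 over Slc25a11 was 0.162, 0.220, 0.270 and 0.221 in MSC veins, against 0.326, 0.347, 0.439 and 0.506 in vehicle veins. The mean of the dicarboxylate carrier was lower in MSC veins, though its own values overlap between the groups, and that of the oxoglutarate carrier was higher. Slc25a33 over Slc25a36, a pair of pyrimidine nucleotide carriers, was 0.208 ± 0.0169 in MSC veins, with 0.153 ± 0.00883 in vehicle veins (n = 4 each, SD), also without overlap. Slc25a34 over Slc25a35 was 0.268 ± 0.0617 in MSC veins, with 1.22 ± 0.617 in vehicle veins, so Slc25a34 was the lower of the pair in each MSC sample and the higher in vehicle samples 1 and 4. The ratios of Slc25a13 to Slc25a12 (0.192 ± 0.0229 in MSC veins, with 0.130 ± 0.0416 in vehicle veins), of Slc25a4 to Slc25a5 (0.656 ± 0.0675 in MSC veins, with 0.589 ± 0.0474 in vehicle veins) and of Slc25a40 to Slc25a39 (0.120 ± 0.0133 in MSC veins, with 0.129 ± 0.00972 in vehicle veins) overlapped between the groups.

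**Figure D4:**
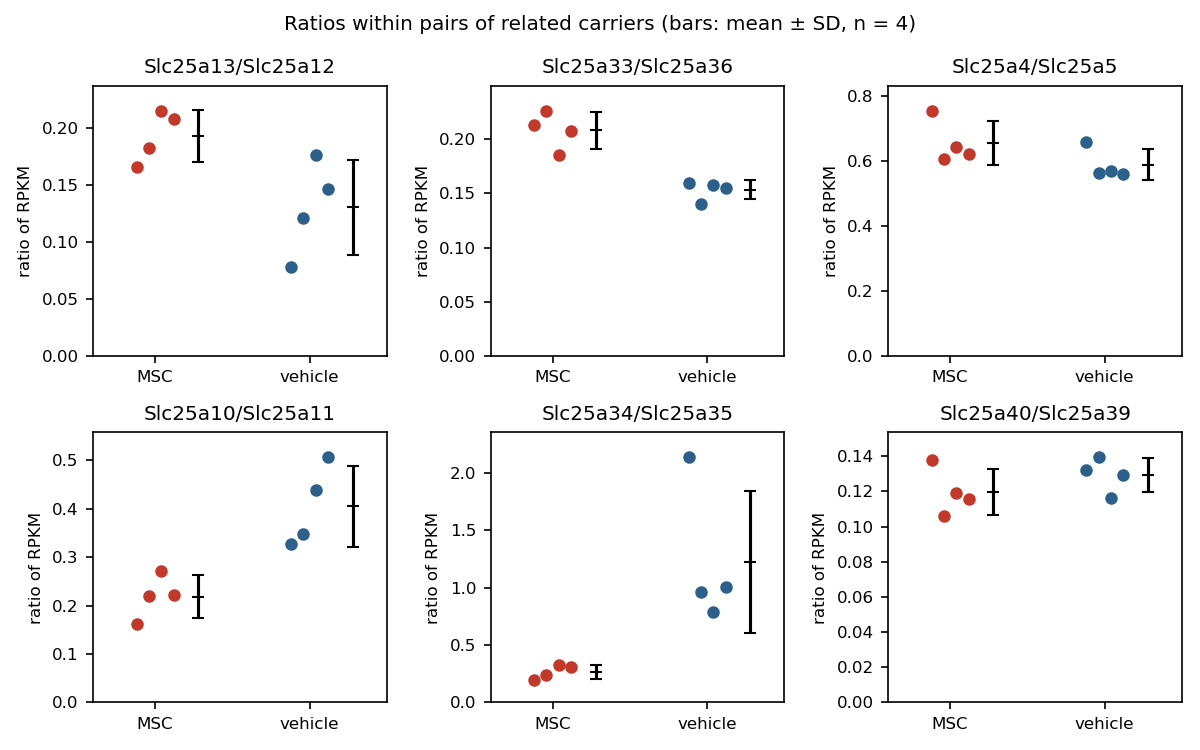
Ratio of RPKM within 6 pairs of related carriers, 1 point per sample with the mean and SD of the 4 MSC and 4 vehicle samples beside them. Slc25a10/Slc25a11 and Slc25a34/Slc25a35 lie lower and Slc25a33/Slc25a36 higher in all MSC samples, and the other 3 pairs drawn overlap.

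The pathways that carriers serve were described from 12 lists of partner genes. For the machinery that works with the ADP/ATP and phosphate carriers no call was made: the 16 ATP synthase genes had a median log2 fold change of 0.02, the 15 genes of inner-membrane import and carrier insertion 0.03, and the 8 regulators of mitochondrial biogenesis tested 0.05. The 18 citric acid cycle genes had a median of -0.08, 15 of them below 0 (against 40.5% of all genes tested), with no call. The 15 iron-sulfur and haem synthesis genes (median 0.03) and the 8 mitochondrial calcium uptake genes (0.08) had no call, and Mtch1 and Mtch2, relatives of the family in the outer membrane, had log2 fold changes of 0.18 and -0.23 without passing.

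Lists that feed on pyruvate, citrate and branched-chain amino acids had lower medians. Of 14 genes of branched-chain amino acid breakdown, 13 were below 0 (median -0.71), against 40.5% of all genes tested (median 0.04). In 9 of the 14 every MSC value lay below every vehicle value, against 4.17% of all genes. Dbt, the core subunit of the branched-chain ketoacid dehydrogenase, fell to 5.36 ± 0.890 RPKM in MSC veins, against 9.94 ± 1.36 in vehicle veins (n = 4 each, SD). Its difference on the log2 scale was -0.79 (standard error 0.12, limma adjusted p = 0.0496). It was the 1 gene of the list to pass, and 0.206% of all genes passed in this direction. The other 13 did not pass, among them Bckdhb (log2 fold change -0.77, limma adjusted p = 0.0609). The call on Dbt held in 1 of 8 fits that each left out a sample (that without MSC sample 3) and was lost in the other 7, with adjusted p between 0.0618 and 0.168. In 6 of 13 other settings it was lost as well: a pseudocount of 0.1 RPKM, no filter, a replicate block and no variance trend. The rest were the white adipocyte and the skeletal muscle score as covariates. The carrier for the same amino acids, Slc25a44, had 7.03, 8.24, 6.68 and 6.79 RPKM in MSC veins, against 6.78, 7.84, 8.22 and 8.11 in vehicle veins, and overlapped. The 11 genes of pyruvate entry and use had a median of -0.39 with no call. Pcx, pyruvate carboxylase, averaged 5.42 ± 3.34 RPKM in MSC veins, with 22.0 ± 4.16 in vehicle veins (n = 4 each, SD; difference on the log2 scale -1.99, adjusted p = 0.0567). The 8 genes of citrate export and cytosolic acetyl-CoA use had a median of -0.50 with no call, with Acacb at -1.30 and Acaca at -0.80.

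In the 6 genes of the malate-aspartate and glycerol phosphate shuttles the median was 0.04 with no call, and Gpd1, the cytosolic glycerol phosphate dehydrogenase that is abundant in adipocytes, averaged 12.8 ± 9.16 RPKM in MSC veins, with 59.9 ± 9.02 in vehicle veins (n = 4 each, SD; difference on the log2 scale -2.42, adjusted p = 0.0608). Among 10 genes of mitochondrial folate, coenzyme A, NAD and methyl donors tested, the median was 0.01 and 1 passed, where 0.206% of all genes passed lower. This was Pank3, a pantothenate kinase that starts coenzyme A synthesis. It fell to 12.6 ± 1.34 RPKM in MSC veins, against 19.3 ± 0.702 in vehicle veins (n = 4 each, SD). The difference on the log2 scale was -0.58 (limma adjusted p = 0.0462). This call too held without MSC sample 3 and was lost on leaving out any of the other 7 samples, with adjusted p between 0.0678 and 0.135. Like the call on Dbt, it was lost in 6 of 13 other settings. These were a pseudocount of 0.1 RPKM, no filter, a replicate block, no variance trend and either covariate. Of the 10 genes of this list tested, 5 were above 0 and 5 below. Mthfd1l averaged 5.11 ± 0.638 RPKM in MSC veins, with 3.22 ± 0.235 in vehicle veins (n = 4 each, SD). Every MSC value of Mthfd1l lay above every vehicle value, as in 5.61% of all genes. It did not pass (difference on the log2 scale 0.53, limma adjusted p = 0.0567). Mthfd2 and Shmt2 had log2 fold changes of 0.49 and 0.36. Without MSC sample 3, Gpd1, Bckdhb and Pcx passed in addition to Dbt and Pank3 (limma adjusted p = 0.0209 for each of Gpd1, Bckdhb and Pcx). In that fit 171 of 12104 genes passed (140 lower), against 28 (25 lower) of 12129 in the main fit. Sample 3 had the highest white adipocyte sum of the MSC veins, 1952 RPKM. The lowest MSC values of Gpd1, Bckdhb and Pcx were all in samples 1 and 4. The white adipocyte sums there were 439.5 and 405 RPKM. When the white adipocyte score was a covariate, the log2 fold change was -0.64 for Gpd1, -0.63 for Pcx and -0.30 for Bckdhb. For Dbt and Pank3 it was -0.44 and -0.40. Each of these values was smaller in size than in the main fit, and none of these genes passed. The white adipocyte sums do not overlap between the groups, so this fit cannot tell adipocyte content from the MSC treatment.

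**Figure D5:**
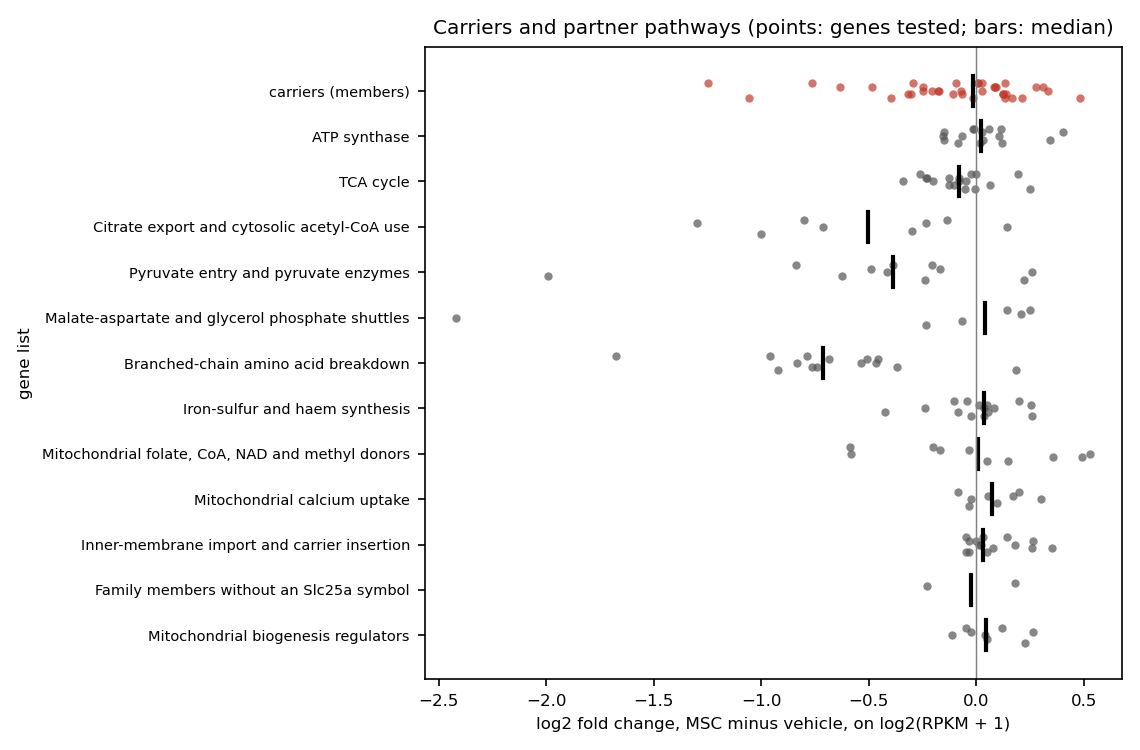
Log2 fold change, MSC minus vehicle, on the log2(RPKM + 1) scale for the 37 carriers tested (red, top row) and the genes tested of 12 partner lists (grey), with a bar at each median. The medians of the carriers and of ATP synthase lie near 0, and those of branched-chain amino acid breakdown, citrate export and pyruvate entry lie at -0.71, -0.50 and -0.39.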

How the data were processed

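The authors deposited RPKM values, 1 column per sample with no pooling. The one build named in the submitters' processing notes is mm10, and the library kit was TruSeq V2, per the labels' protocols. The aligner, the counting tool, the annotation and any use of strand were not given in the sources used here. Members, lists, roles and alternatives were chosen with earlier results of these data known.

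The 12129 of 23358 genes that averaged 1 RPKM or more over the 8 samples were tested, MSC against vehicle, on log2(RPKM + 1) with limma 3.58.1 (R 4.3.3): a mean-variance trend, no covariate or block, 2-sided, Benjamini-Hochberg over all genes tested, threshold 0.05. On data simulated for this comparison with 200 genes changed, 91.0% of changes of 1 log2 unit were recovered with 18 false calls (12048 genes) and 98.5% of changes of 2 with 8 false calls (12047 genes); with no gene changed, 0 calls were made (12050 genes). Changes were planted only in genes of higher mean level, with independent noise for each gene. The shares recovered therefore do not cover low carriers such as Slc25a34, Ucp1, Ucp3 and Slc25a13. RPKM steps returned whole reads for 100.0% of 143006 values above 0 (tolerance 0.001 reads). The closest replicate pair had a chi-square per degree of freedom of 31.2, so no pair was close enough to be repeat sequencing of 1 library. This measure does not look for outlying samples, and none was left out of the main fit. Of 226 genes in 22 lists, 223 were found, 10 by older symbols. Carriers given in all samples were those past the threshold, those whose groups did not overlap, the 6 highest, the uncoupling proteins, the ADP/ATP carriers, Slc25a34 and Slc25a35, and the smallest p of each role; others named were chosen after values were seen. Coordinates are those of GENCODE M21 (GRCm38), found for all 45 carriers; exons of 13 overlap a gene on the other strand. Alternatives were other pseudocounts, filters and scalings, a replicate block, sample weights, no trend, voom on the reads, 2 covariates, another threshold and each sample left out; they were applied to 5 partner genes only after their values were seen.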

Additional observations from a re-analysis of the deposited data

Results flagged for a closer look

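In 7 of 90 sets of 4 values (45 carriers in each group), 1 sample lay far from the other 3 by Dixon's test; chance gives about 1 in 20. Among MSC veins these were sample 4 for Slc25a14 (2.14 RPKM, the others 2.41), sample 1 for Slc25a22 (5.65, the others 9.59 to 10.1) and sample 4 for Slc25a37 (13.7, the others 11.5 to 11.6). Among vehicle veins they were sample 2 for Slc25a31 (0.0638 RPKM, the others 0.140 to 0.145), sample 3 for Slc25a39 (36.3, the others 28.0 to 29.3), sample 4 for Slc25a41 (0.0208, the others 0) and sample 4 for Ucp1 (5.69, the others 1.09 to 1.37). The low values of Slc25a31 and Slc25a41 rest on at most 14 reads in any vehicle sample.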

How the results depend on the processing

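The call on Slc25a34 was the 1 carrier call. It became 0 calls with no filter on low values (of 45 carriers; 10 at unadjusted p under 0.05), with a mean of at least 5 RPKM (of 22, which no longer hold Slc25a34; 5 unadjusted), with a replicate block (10 unadjusted) and with the white adipocyte score as a covariate (2 unadjusted), and was 0 to 1 when samples were left out in turn. The median over carriers was 0.11 with that covariate, beside 0.10 over all genes. The same-number samples did not vary together (correlations 0.143, -0.00282, -0.332 and -0.122), so the replicate block, under which Slc25a34 had an adjusted p of 0.110, pairs only numbers. Genes called over the table, 28 (25 lower), came to 10 with a pseudocount of 0.1, 59 with 5, 1 with no filter, 76 with upper-quartile scaling (63 lower), 72 with median-of-ratios scaling (61 lower), 129 with quantile normalization (96 lower), 0 with the replicate block (1768 unadjusted), 73 with array weights (46 lower), 0 with the white adipocyte covariate (669 unadjusted), 60 with the skeletal muscle covariate, 225 at a threshold of 0.1, and 0 to 171 with samples left out. Signs turned for values near 0: Slc25a39 was -0.0067 with upper-quartile and -0.016 with median-of-ratios scaling, -0.0046 with voom and -0.022 to 0.11 with samples left out; Ucp2 was -0.026, -0.036 and -0.019 with upper-quartile, median-of-ratios and quantile scaling, -0.022 with voom, -0.20 and -0.065 with the adipocyte and muscle covariates and -0.091 to 0.20 with samples left out. With the white adipocyte covariate Slc25a23 was 0.17, Slc25a35 0.14 and Ucp3 0.32. The causes were not tested. For single carriers, 300 values kept direction and side of the threshold. Apart from Slc25a34 these carriers were not called to begin with, so their values do not show how stable a call is. Slc25a34 kept its call in 11 of the 20 settings that tested it and lost only the call in 9. The 5 carriers under 0.2 RPKM rest on at most 16 reads per sample, and the 3 between 0.2 and 1 RPKM on 24 to 76; none of the 8 was tested at the filter used.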
